A study of Mus musculus with 6 samples.

Results

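The genes described here are 10 genes of transforming growth factor beta (TGF-beta) signalling: the ligand Tgfb1, the receptors Tgfbr1 and Tgfbr2, the signal transducers Smad2, Smad3 and Smad4, the inhibitory Smad7, the co-repressors Ski and Skil and the ubiquitin ligase Smurf2. They were taken by symbol from the 55394 genes listed for each library, and each symbol had exactly 1 entry. The study profiled group 2 innate lymphoid cells (ILC2s), tissue-resident lymphocytes that make type 2 cytokines without an antigen receptor, from the lungs of neonatal wild-type C57BL/6 mice. Each library was made by SMART-seq, a low-input RNA sequencing method, from 1000 cells sorted as CD45+Lin-CD90.2+CD25+. There were 3 libraries from pups whose dams drank a cocktail of ampicillin, metronidazole, neomycin and vancomycin from gestation day 10 to 14 (Abx), and 3 libraries from pups of control dams without antibiotics (Con). The exposure was thus of the dam and not of the pup, no transgene or deletion was involved, and the age of the pups and whether cells of several pups went into a library are not given in the sources used here. P-values therefore measure the spread between these libraries, which may be technical in part.

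TGF-beta is secreted in a latent form and, once released, binds the type II receptor TGFBR2, which recruits and phosphorylates the type I receptor TGFBR1. TGFBR1 then phosphorylates SMAD2 and SMAD3, which join SMAD4 and enter the nucleus to switch target genes. SMAD7 and SMURF2 take the active receptor out of service, and SKI and SKIL hold SMAD complexes in a repressed state. In innate lymphoid cells this pathway is known to shape development and tissue residence.

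Levels are given as FPKM, fragments scaled to exon length and to the number of mapped reads, so different genes can be set side by side. Total FPKM was 420941 to 449523 per library in Con and 431613 to 489262 in Abx, and read numbers are not known. Between 8574 and 9203 genes reached 1 FPKM in Con libraries and between 7074 and 8193 in Abx libraries. Libraries of a group differed widely for single genes. Switching was counted over genes at 1 FPKM or more in at least 3 of the 6 libraries. Of those that reached 5 FPKM in a Con library, 11.2% were under 0.1 FPKM in another Con library. In Abx the share was 26.3%. The 12 ILC2 markers were above 0 in all libraries, with a summed level of 2183 to 2624 FPKM in Con against 1788 to 2336 FPKM in Abx. The lineage factor Gata3 was at 76.24, 97.48 and 76.06 FPKM in Con against 95.75, 33.9 and 46.05 FPKM in Abx, and Rora at 64.75 to 99.89 and 35.14 to 73.94 FPKM. The surface markers Il7r (18.09 to 57.33 FPKM over all libraries), Thy1 (8.82 to 15.41 FPKM) and Il2ra (13.65 to 46.02 FPKM) overlapped between the groups as well. For 3 ILC2 markers every Abx library was below every Con library, the effector gene Areg, at 657.07 to 783.31 and 197.07 to 393.27 FPKM, and the costimulatory receptor gene Icos, at 240.5 to 288.65 and 82.41 to 120.32 FPKM (limma adjusted p = 0.0911 for both), and Il1rl1. Ptprc, which encodes CD45, was higher in every Abx library, at 18.6 to 22.9 and 25.41 to 45.0 FPKM. Il1rl1, which encodes the IL-33 receptor, was at 0.06, 0.89 and 2.94 FPKM in Con, against no more than 0.03 FPKM in Abx. The 4 erythroid markers summed to 2833.74 to 6337.58 FPKM in Con against 1312.91 to 3870.04 FPKM in Abx. The 5 epithelial markers summed to 42.67 to 1165.83 FPKM in Con, highest in library 1, against 55.8 to 141.61 FPKM in Abx. Both of these sums overlapped between the groups. The summed levels of B cell and T cell markers were separated between the groups, though not every gene was. The summed level of 9 B cell genes was 563.57 to 722.14 FPKM in Con against 1334.79 to 1588.48 FPKM in Abx, with 8 of 9 higher on average in Abx. Every Abx library was above every Con library for 5 of these 9 and below for 1, Cd79b. Over all genes at 1 FPKM or more in at least 3 of the 6 libraries, 8.49% were above and 8.73% below. For 9 T cell genes the sum was 1137 to 1237 and 2048 to 2247 FPKM, again with 8 of 9 higher in mean FPKM. On mean log2(FPKM + 1), both Cd8a and Trac were lower in Abx, with differences of -0.677 and -0.1868. The groups were separated for 4 of these 9, while Cd3e, Cd4, Cd8a, Cd5 and Trac overlapped. Trbc2 was the highest of the 9, at a mean log2(FPKM + 1) of 9.83 in Con and 10.75 in Abx. Of 6 NK cell genes 1 was higher in Abx, the granzyme gene Gzma, at 0 to 13.78 FPKM in Con and 215.41 to 223.6 FPKM in Abx, where it made up the whole sum of the list. Klrb1c, Prf1 and Tbx21 were at 0 in all libraries. The sum of 4 mast cell and basophil genes went the other way, at 327.85 to 422.47 FPKM in Con against 184.89 to 294.99 FPKM in Abx. Of these 4, Mcpt8 and Ms4a2 were lower in every Abx library. Cpa3 and Fcer1a overlapped between the groups, and Fcer1a was higher on average in Abx. Xist, transcribed from the inactive X chromosome of females, was at 3.78, 4.38 and 5.09 FPKM in Con but listed at 0 in Abx, while the Y-linked Eif2s3y was at 0.03 to 0.86 and 11.85 to 24.37 FPKM, so pup sex and exposure cannot be told apart. In libraries of this kind, fewer cells of a type and less RNA per cell cannot be told apart either. The part of these differences in the results below was not tested.

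No gene among the 10 passed the test between Abx and Con. Of the 10, 8 reached 1 FPKM in at least 3 of the 6 libraries and were tested with limma on log2(FPKM + 1) among 8718 genes in all, and 0 were called (fold change above 2 with adjusted p below 0.05). Over all genes tested 5 were called (Gm20069, H2-Ab1, Hist1h2ao, Ly6d and Vps37b, named after their values were seen), or 0.0574%, beside which 0 of 8 is no result about these genes. The estimate was higher in Abx for 3 of the 8 genes (Smad2, Smad4, Smad7) and lower for 5 (Tgfb1, Tgfbr2, Smad3, Ski, Skil). The median log2 fold change of the 8 was -0.29, beside -0.064 over all genes tested, and it was 0.26 when the libraries were quantile normalized, where Tgfb1 and Ski turned to higher. At an unadjusted p under 0.05, 1 of the 8 was lower in Abx, Smad3, where 6.25% of all genes tested were lower, and 0 were higher, where 4.74% were. Every Abx library lay below every Con library for 2 of the 8, Smad3 and Skil, a pattern held by 8.73% of all genes tested, and every Abx library lay above for 0 of the 8, beside 8.49%. With 8 genes these shares are 1 or 2 genes each, and they are given as a description of the list. The standard errors of the 8 log2 fold changes ran from 0.47 to 1.05 with a median of 0.72, the same as the median of 0.72 over all genes tested.

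**Figure D1:**
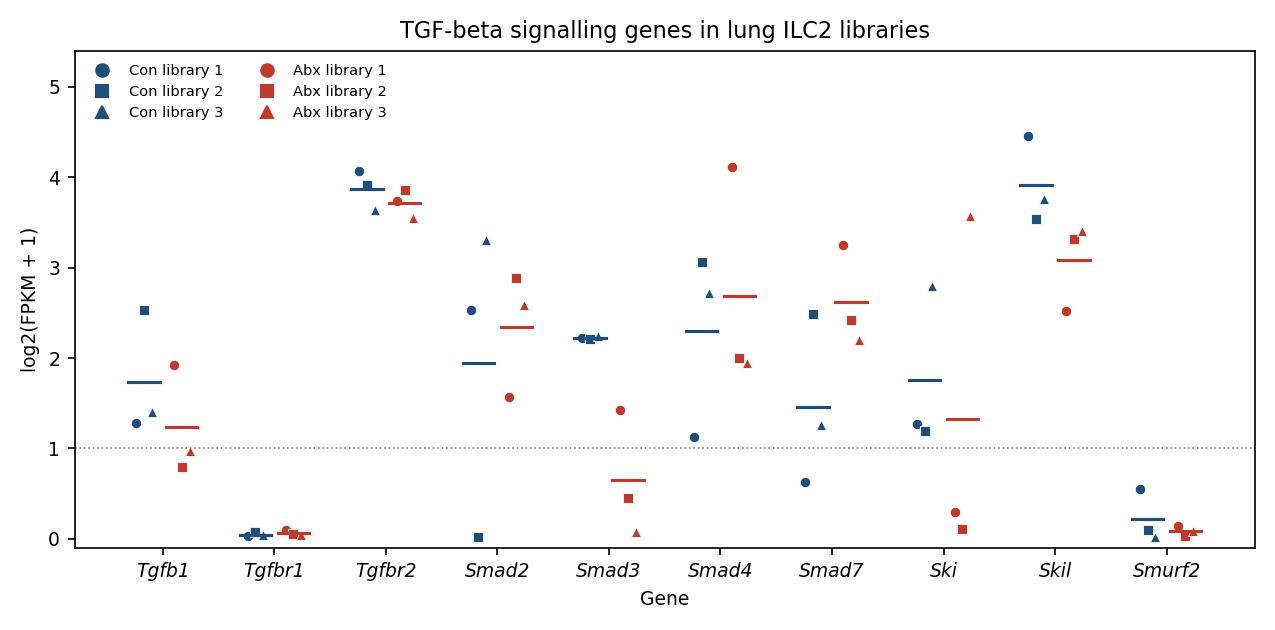
Level of each of the 10 genes as log2(FPKM + 1) in the 3 Con (blue) and 3 Abx (red) libraries, 1 symbol per library, with bars at the group means and a dotted line at 1 FPKM. Tgfbr2 and Skil sit highest, Tgfbr1 and Smurf2 near 0, and the Con points of Smad3 lie together at 3.64 to 3.72 FPKM above all of its Abx points.

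The ligand gene Tgfb1 (ENSMUSG00000002603, chr7:25687002-25705077, plus strand, GRCm38) encodes TGF-beta 1, the form that lymphocytes make most. Its level was 1.43, 4.79 and 1.64 FPKM in Con against 2.80, 0.74 and 0.96 FPKM in Abx, with means of 2.62 ± 1.88 and 1.5 ± 1.13 FPKM (SD, n = 3 each). The groups overlapped, since Abx library 1 was above Con libraries 1 and 3. The log2 fold change was -0.51 with a standard error of 0.65 and a limma adjusted p of 0.841, and its 95% interval from -2.02 to 1.01 corresponds to 0.247 to 2.01 times the Con value of FPKM + 1.

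The receptor genes showed one abundant and one nearly undetected partner. Tgfbr2 (ENSMUSG00000032440, chr9:116084293-116175360, minus strand), the ligand-binding type II receptor, was at 15.76, 14.07 and 11.41 FPKM in Con against 12.34, 13.46 and 10.72 FPKM in Abx. It varied little across the 6 libraries, and the groups overlapped. Its means were 13.7 ± 2.19 and 12.2 ± 1.38 FPKM, and the log2 fold change was -0.16 with a standard error of 0.47, an interval from -1.26 to 0.94 and a limma adjusted p of 0.933. Tgfbr1 (ENSMUSG00000007613, chr4:47353222-47414931, plus strand), the type I receptor kinase, was at 0.02, 0.05 and 0.03 FPKM in Con against 0.07, 0.04 and 0.03 FPKM in Abx, under the filter in all libraries. The exact permutation test of its log2(FPKM + 1) gave p = 0.5 (two-sided, 3 libraries against 3, where 0.1 is the smallest p possible). Without read counts, values this low have no known error. The log2 ratio of Tgfbr2 to Tgfbr1, on FPKM + 1, was 3.59 to 4.04 in Con and 3.51 to 3.8 in Abx.

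SMAD2 and SMAD3 are the receptor-activated SMADs of this pathway. Smad3 (ENSMUSG00000032402, chr9:63646767-63757994, minus strand) was at 3.67, 3.64 and 3.72 FPKM in Con, against 1.68, 0.37 and 0.05 FPKM in Abx. The 3 Con libraries were nearly equal, and every Abx library was below them, with a spread from 1.68 down to 0.05 FPKM. Its means were 3.68 ± 0.0404 and 0.70 ± 0.864 FPKM. The log2 fold change of -1.58 had a standard error of 0.59 and an interval from -2.95 to -0.21, and the unadjusted p of 0.0294 from limma became an adjusted p of 0.353 over the genes tested. Smad3 passed the filter through its 3 Con libraries and 1 Abx library. The size of the estimate followed the pseudocount and scaling, at -2.92 with a pseudocount of 0.1, -3.45 with 0.01 and -0.86 after quantile normalization, with adjusted p of 0.261 to 0.706 among the alternatives. The summed B cell and T cell genes and Gzma were higher in the same 3 Abx libraries, and the part of this in the Smad3 values, or in those of the other gene with separated groups, Skil, was not tested.

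Smad2 (ENSMUSG00000024563, chr18:76241580-76310963, plus strand), the other receptor-activated SMAD, was at 4.77, 0.01 and 8.89 FPKM in Con against 1.96, 6.39 and 5.01 FPKM in Abx. Con library 2 stood at 0.01 FPKM and Con library 3 held the highest value of all, so the lowest and the highest lay within Con. The log2 fold change was 0.40 with a standard error of 1.01 (limma adjusted p = 0.915), and without Con library 2 it was -0.57. Smad4 (ENSMUSG00000024515, chr18:73639009-73703780, minus strand), the partner shared by all receptor-activated SMADs, was at 1.19, 7.33 and 5.59 FPKM in Con against 16.33, 2.99 and 2.86 FPKM in Abx. Abx library 1 held the highest value and Con library 1 the lowest, and the other four libraries lay between. Its log2 fold change was 0.38 with a standard error of 0.93 (limma adjusted p = 0.912), and it was -0.20 without Con library 1 and -0.33 without Abx library 1.

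The inhibitory SMAD gene Smad7 (ENSMUSG00000025880, chr18:75367529-75395935, plus strand), which is itself a target of the pathway, had the highest estimate among the 8. It was at 0.55, 4.62 and 1.39 FPKM in Con against 8.53, 4.35 and 3.58 FPKM in Abx. Con library 2 was within the range of Abx, and the other two Con libraries were below it. Its means were 2.19 ± 2.15 and 5.49 ± 2.66 FPKM. On the log2 scale the fold change was 1.16 with a standard error of 0.78, an interval from -0.65 to 2.98 and a limma adjusted p of 0.666. Smurf2 (ENSMUSG00000018363, chr11:106820066-106920715, minus strand), the ligase that SMAD7 brings to the receptor, was at 0.47, 0.07 and 0.01 FPKM in Con against 0.10, 0.02 and 0.06 FPKM in Abx, under the filter in all libraries (exact permutation test, p = 0.8). It was the only gene of the 10 with exon bases in common with another annotated gene, Gm27322, over 58 of its 6162 exon bases.

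The co-repressor genes Skil and Ski, close relatives, had separate ranges of level in Con and overlapping ranges in Abx. Skil (ENSMUSG00000027660, chr3:31095058-31122577, plus strand), whose product is known to be degraded when the pathway is active and whose gene is then induced, was at 20.93, 10.63 and 12.52 FPKM in Con against 4.72, 8.98 and 9.60 FPKM in Abx. Every Abx library was below every Con library, by a narrow margin between 9.60 and 10.63 FPKM. The means were 14.7 ± 5.48 and 7.77 ± 2.66 FPKM, with a log2 fold change of -0.84, a standard error of 0.58, an interval from -2.20 to 0.52 and a limma adjusted p of 0.684. Ski (ENSMUSG00000029050, chr4:155154075-155222592, minus strand) was at 1.41, 1.29 and 5.96 FPKM in Con against 0.23, 0.08 and 10.91 FPKM in Abx. Library 3 of each group was the highest in its group, and Abx held both the highest and the lowest values. The log2 fold change of Ski was -0.43 with a standard error of 1.05 (limma adjusted p = 0.912). It was 0.10 without Con library 3, 0.09 without Abx library 1, 0.18 without Abx library 2 and 0.34 after quantile normalization.

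**Figure D2:**
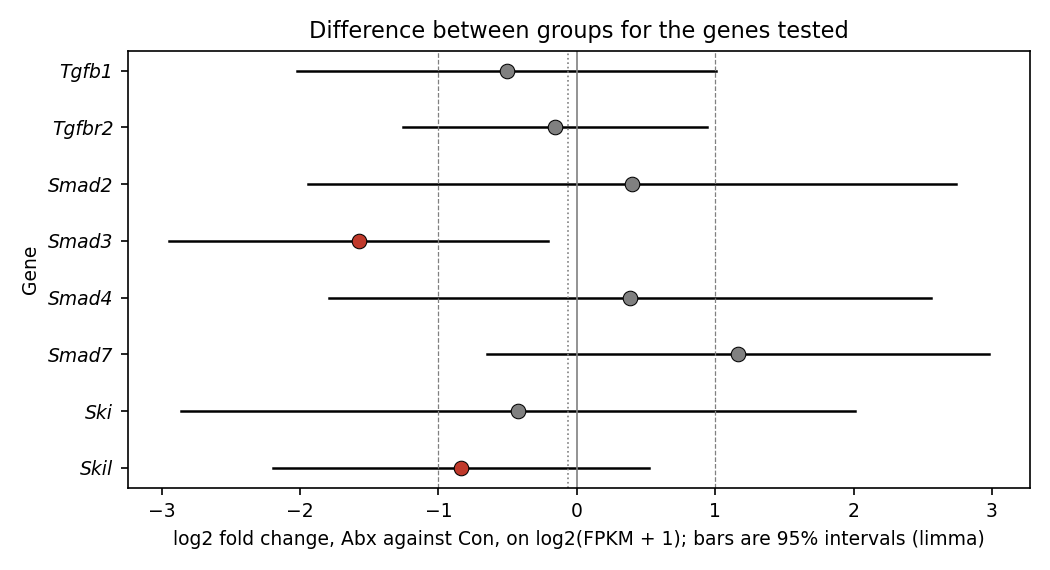
Log2 fold change of Abx against Con on log2(FPKM + 1) for the 8 genes tested, with 95% intervals from limma. Dashed lines mark a 2-fold change in each direction, the dotted line the median of all genes tested (-0.064), and red points the 2 genes whose groups do not overlap. Smad3 is the gene whose interval, from -2.95 to -0.21, leaves out 0.

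Within Con the order of mean levels was Skil (14.7 FPKM), Tgfbr2 (13.7), Smad4 (4.70), Smad2 (4.56), Smad3 (3.68), Ski (2.89), Tgfb1 (2.62), Smad7 (2.19), Smurf2 (0.183) and Tgfbr1 (0.0333). The ranges over libraries of Skil and Tgfbr2 overlapped, those of Tgfbr2 and Smad4 did not, and those of Smad7 (lowest 0.55 FPKM) and Smurf2 (highest 0.47 FPKM) just missed each other, while all other neighbours overlapped. In Abx the order was Tgfbr2 (12.2 FPKM), Skil (7.77), Smad4 (7.39), Smad7 (5.49), Smad2 (4.45), Ski (3.74), Tgfb1 (1.5), Smad3 (0.70), Smurf2 (0.06) and Tgfbr1 (0.0467), and Tgfbr2 and Skil were the only neighbours whose ranges did not overlap. Smad3 thus stood at rank 5 in Con and rank 8 in Abx, and Smad7 at ranks 8 and 4. The number of the 10 genes at 1 FPKM or more was 7, 7 and 8 in Con libraries 1 to 3, against 7, 5 and 6 in Abx libraries 1 to 3. Their summed level was 50.2, 46.5 and 51.16 FPKM in Con against 48.76, 37.42 and 43.78 FPKM in Abx. Abx library 1 was within the Con range in both measures. A switch from 5 FPKM or more to under 0.1 FPKM within a group was seen for 1 of 5 genes in Con, Smad2, and for 1 of 6 in Abx, Ski.

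Ratios between genes of the same library depend on scaling between libraries only through the pseudocount. Of 6 ratios, given as log2 of (FPKM + 1) over (FPKM + 1), the groups were separated in 2, both with Smad3 as the denominator. Smad3 alone was already separated, so these are not 2 further observations. The share of separated ratios among other pairs of genes was not computed. The ratio of Smad7 to Smad3, inhibitor to transducer, was -1.59, 0.28 and -0.98 in Con against 1.83, 1.97 and 2.12 in Abx. Smad3 exceeded Smad7 in 2 of 3 Con libraries and in none of the Abx libraries, and the Abx values were close together. The means were -0.77 ± 0.95 and 1.97 ± 0.15, a difference of 2.74 (exact permutation test, p = 0.1, the smallest it can give, and 0.3 after Benjamini-Hochberg adjustment over the 6 ratios). The ratio of Smad4 to Smad3 was -1.09, 0.84 and 0.48 in Con against 2.69, 1.54 and 1.88 in Abx. All Abx values were above all Con values, with a difference of 1.96 (exact permutation test, p = 0.1, adjusted p = 0.3). The ratio of Smad3 to Smad2 was -0.31, 2.20 and -1.07 in Con against -0.14, -2.43 and -2.52 in Abx, and the groups overlapped (difference -1.97, exact permutation test, p = 0.3, adjusted p = 0.45), and the difference was -1.01 without Con library 2. The size of these 3 differences followed the pseudocount: with 0.01 in place of 1 they were 5.18 for Smad7 to Smad3, 3.95 for Smad4 to Smad3 and -5.52 for Smad3 to Smad2. For Tgfbr2 to Tgfbr1 the difference was -0.18, for Skil to Ski -0.41 and for Smurf2 to Smad7 -1.30, with adjusted p of 0.48, 0.7 and 0.45 in the exact permutation test. A ratio shows that 2 genes differed unequally and not which of them moved.

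**Figure D3:**
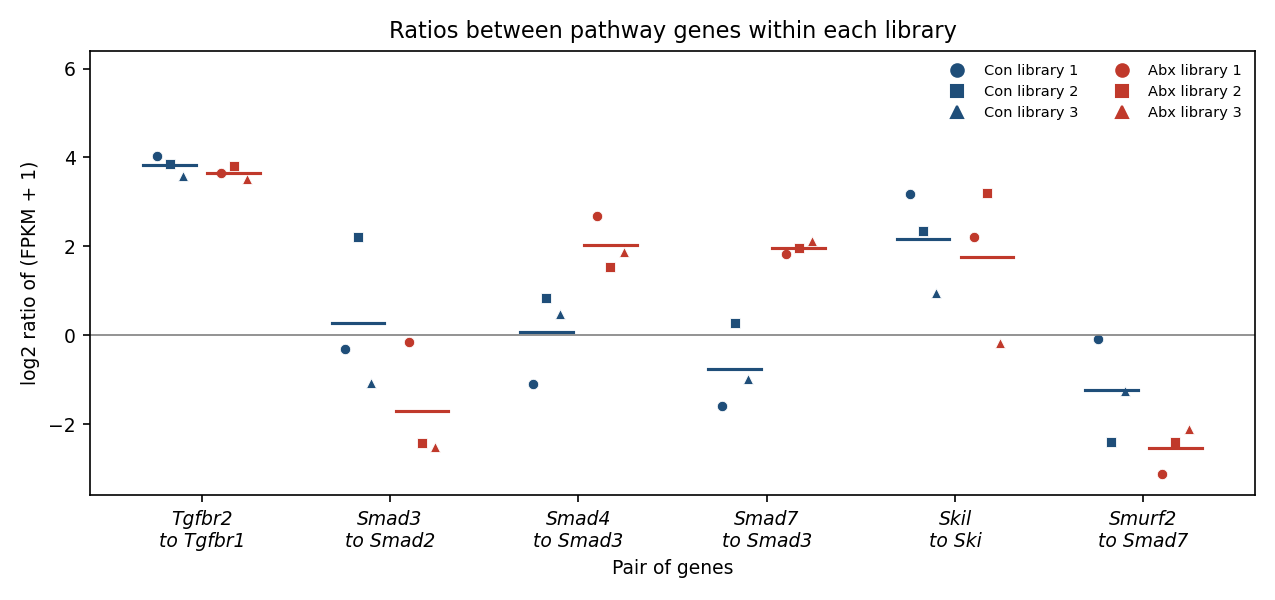
Log2 ratio of (FPKM + 1) between 6 pairs of genes in each library, Con in blue and Abx in red, with bars at the group means and a line at equal levels. The Smad4 to Smad3 and Smad7 to Smad3 points of Abx, at 1.54 to 2.69 and 1.83 to 2.12, lie above all Con points of the same pair.

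The wider pathway was described with a list of 85 symbols in 7 roles, of which 84 were found. Of these, 41 were tested and 0 were called, beside 0.0574% of all genes tested. Estimates were higher in Abx for 16 and lower for 25, and their median was -0.35 on the log2 scale. Taking the unadjusted p below 0.05, there were 2 higher genes (Stub1 and Usp11) and 4 lower ones, beside 4.74% and 6.25% of all genes tested. Every Abx library lay above every Con library for 4 of the 41 and below for 8, beside 8.49% and 8.73% of all genes tested. Usp11 is in both counts of higher genes. It passed the filter through the Abx libraries alone, so that it had to differ. The lowest limma adjusted p of the list was 0.0911. By role, estimates were lower for 7 of 8 genes of the SMAD-independent branch (median -1.01), 8 of 13 inhibitors and ubiquitin enzymes (-0.16), 4 of 9 targets (0.04) and 3 of 8 co-activators and co-repressors (0.34). The targets were not split into genes that TGF-beta induces and genes that it represses, so their median gives no direction for the pathway. Only 1 of 13 ligand and activation genes, 2 of 10 other receptors and 0 of 7 other SMADs and SMAD adaptors passed the filter. Of the 43 genes under the filter, 40 were above 0 in some library. The groups were separated with Abx below Con for 4 of these 40 and above for 4. Among all 10846 genes under the filter and above 0 in some library, 2.18% and 3.78% were.

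The genes named here are the 2 with the highest mean level in each role. Among the ligand and activation genes, Furin, the protease that cuts the TGF-beta precursor, was at 12.06, 12.14 and 10.32 FPKM in Con against 6.94, 3.86 and 6.06 FPKM in Abx. All Abx values were lower, with a log2 fold change of -0.94, a standard error of 0.59 and a limma adjusted p of 0.644. Itgav, the alpha v integrin that releases latent TGF-beta, was at 4.10, 0.93 and 4.74 FPKM in Con against 0.86, 0.59 and 0.61 FPKM in Abx, under the filter (exact permutation test, p = 0.1). Its partners Itgb6 and Itgb8 were listed at 0 in all libraries. Of the receptors, Eng, a co-receptor known from endothelium, was at 0.05, 5.84 and 3.43 FPKM in Con against 0.11, 1.2 and 0.09 FPKM in Abx, and Acvr2a, an activin receptor, at 0.02, 4.55 and 2.36 FPKM and 1.13, 0 and 0 FPKM. Their groups overlapped, with limma adjusted p of 0.652 and 0.663. Smad1, a SMAD of the BMP branch, and Trim33, which binds SMAD2 and SMAD3, each reached 1 FPKM in no more than 2 libraries.

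Bambi, a decoy receptor that lacks the kinase domain and is induced by TGF-beta, was the most abundant inhibitor. It was at 75.77, 114.54 and 89.37 FPKM in Con against 30.82, 32.80 and 30.80 FPKM in Abx. Every Abx library was below every Con library, and the Abx values lay within a range of 2 FPKM. This gave a log2 fold change of -1.52 with a standard error of 0.29, an interval from -2.18 to -0.85 and a limma adjusted p of 0.0911, which did not pass. Uchl5, a deubiquitinase of the receptor, was at 34.5 to 41.72 FPKM in Con against 39.48 to 55.08 FPKM in Abx (log2 fold change 0.35, standard error 0.30, limma adjusted p = 0.738). Hdac1, a deacetylase that SKI and SKIL recruit, was at 63.42 to 103.23 and 46.49 to 82.96 FPKM, and E2f4, a repressor partner of SMAD3, at 24.19 to 32.34 and 21.1 to 62.2 FPKM, both with overlapping groups. So were Rhoa, a small GTPase, at 50.62 to 72.09 and 27.31 to 71.9 FPKM, and the polarity protein gene Pard6a, at 11.36 to 19.92 and 10 to 35.71 FPKM.

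The most abundant genes on the list were the targets Junb and Gadd45b, which many other stimuli induce as well. Junb, an AP-1 factor, was at 3178.65, 3771.81 and 3993.94 FPKM in Con against 2936.55, 2014.76 and 1783.42 FPKM in Abx, and Gadd45b, a stress-response gene, at 1900.71, 2028.56 and 2638.72 FPKM and 1491.57, 1497.25 and 1444.51 FPKM. Both were lower in every Abx library, with log2 fold changes of -0.73 (standard error 0.22) and -0.55 (standard error 0.18) and limma adjusted p of 0.226 and 0.256. Among genes chosen after their values were seen, Cdkn1a, a cell cycle inhibitor that TGF-beta induces, was at 594.69, 581.63 and 677.34 FPKM in Con against 213.33, 258.31 and 320.84 FPKM in Abx. All Abx values were at most 320.84 FPKM and all Con values at least 581.63 FPKM, with a log2 fold change of -1.24, a standard error of 0.21 and a limma adjusted p of 0.0911. Usp11, an X-linked deubiquitinase of the receptor, was at 0, 0.02 and 0.01 FPKM in Con against 9.73, 13.22 and 5.27 FPKM in Abx. It passed the filter through the 3 Abx libraries alone, so that it had to differ, and these are the groups that also differ in Xist. Stub1, a ligase for SMAD3, was at 23.04 to 30.1 FPKM in Con against 36.66 to 63.34 FPKM in Abx (log2 fold change 0.91, standard error 0.35, limma adjusted p = 0.372). Id1 and Itgae were further targets on the list. Id1 was at 9.43, 6.77 and 0.05 FPKM in Con against 20.7, 12.42 and 16.39 FPKM in Abx. Its log2 fold change was 1.97 with a standard error of 0.96 (limma adjusted p = 0.52), and 0.93 without Con library 3. Itgae, which TGF-beta induces in resident lymphocytes, was at no more than 0.02 FPKM in any library.

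**Figure D4:**
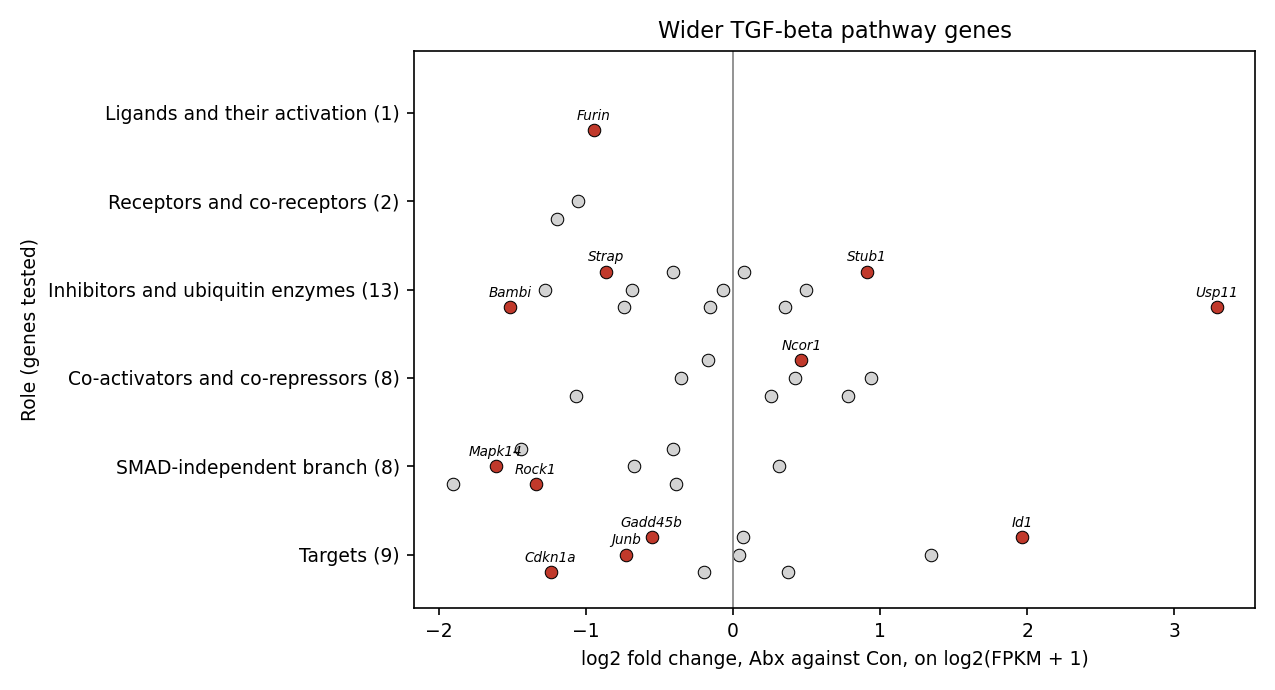
Log2 fold change of Abx against Con on log2(FPKM + 1) for the 41 tested genes of the wider pathway, by role, with the number tested in brackets. Red points with a name are the 12 genes whose groups do not overlap, 4 higher and 8 lower in Abx, and none of the 41 passed the test. Usp11 passed the filter through the Abx libraries alone, so that it had to differ.

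**Figure D5:**
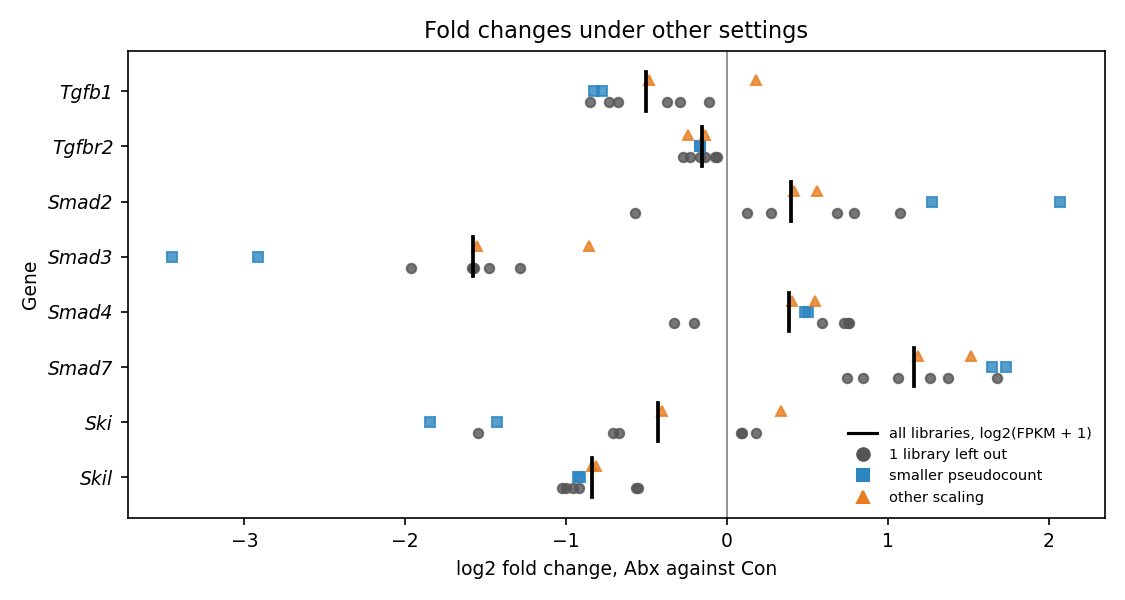
Log2 fold change of the 8 genes tested with all libraries on log2(FPKM + 1) (black bar), with 1 library left out (grey), with a pseudocount of 0.1 or 0.01 (blue) and with other scaling between libraries (orange). Tgfbr2, Smad3, Smad7 and Skil kept their direction in all of them, and Tgfb1, Smad2, Smad4 and Ski did not.

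The 250 bases before the start of transcription were read from RefSeq (GRCm38.p6) for the 6 genes with an entry (7 entries, since Tgfbr1 has 2), and searched on both strands for CAGAC, the core of the SMAD binding element, and for its palindrome GTCTAGAC. CAGAC lay in 3 of the 7 windows, those of Tgfbr2 and Smurf2 and one of Tgfbr1, beside 42.2% of all 32851 promoter windows, and GTCTAGAC in 0 of 7, beside 0.167%. A match is a description of the letters and not a site in use. The windows of Smad3, the gene with the largest estimate, and of Tgfbr2, the gene with the smallest, are shown side by side, both on the minus strand of chr9, in lower case with CAGAC in capitals. The Smad3 window (chr9:63757995-63758244) has a GC content of 69.2% and 22 CpG, the Tgfbr2 window (chr9:116175364-116175613) 58.4% and 12 CpG with CAGAC 160 bases before the start, and the medians of all windows were 52.4% and 6.
Smad3: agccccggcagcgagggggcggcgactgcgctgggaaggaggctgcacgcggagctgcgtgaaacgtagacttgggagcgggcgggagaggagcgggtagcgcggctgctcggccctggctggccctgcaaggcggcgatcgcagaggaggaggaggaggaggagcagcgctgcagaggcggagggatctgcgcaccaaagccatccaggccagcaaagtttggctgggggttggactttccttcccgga
Tgfbr2: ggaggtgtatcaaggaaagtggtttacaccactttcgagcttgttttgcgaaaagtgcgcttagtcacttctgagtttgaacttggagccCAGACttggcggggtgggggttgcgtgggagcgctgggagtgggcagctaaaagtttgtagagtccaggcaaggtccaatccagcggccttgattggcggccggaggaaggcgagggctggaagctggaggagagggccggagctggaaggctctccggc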

How the data were processed

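RNA of 6 libraries, each from 1000 sorted lung ILC2s, was sequenced by SMART-seq, and the sample labels gave the group (Con or Abx, 3 libraries each) and a replicate number. The deposited values are gene-level FPKM, made by the authors with StringTie after adapter removal with Cutadapt and mapping with HISAT2. Their methods name a human Ensembl 96 genome, whereas the genes carry mouse identifiers, 55134 of 55394 of which are in GENCODE M21 (GRCm38), the source of all gene coordinates here. The submitters' processing notes also name Bowtie 0.12.2 and the builds mm8 and mm9. Read counts could not be derived. Steps of whole reads, at the best-fitting step size, accounted for only 25.5% to 28.9% of low values. A fixed step size meets 20.0% by chance (tolerance 0.1 of a step), and the chance share of a best fit was not computed. The count model used by the authors was therefore not repeated, counting errors are unknown, and zeros are described as listed at 0. Whether counting used strand is not given in the sources used here.

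The 8718 genes that reached 1 FPKM in 3 or more of the 6 libraries were tested on log2(FPKM + 1), which understates the change of low genes, with limma 3.58.1 in R 4.3.3 (lmFit, eBayes with trend), two-sided, with Benjamini-Hochberg adjustment over all genes tested and the thresholds of the methods (fold change over 2, adjusted p under 0.05). Ratios and genes under the filter had an exact two-sided permutation test, whose smallest p is 0.1. The fit was tested on data simulated with normal errors at the fitted spread, which lack the switching within groups seen here. Figures and tables were made with Python 3.11.15, pandas 2.3.3 and matplotlib 3.10.9. The 10 genes, the pathway and marker lists, the tests and the alternatives (other pseudocounts, scalings, filters and call rules, robust variance, each library left out, a replicate block) were chosen with earlier results of these data known. The rule for named genes took all 10 genes, the 2 most abundant genes in each of the 7 roles of the wider list, any called gene of that list, 7 ILC2 markers (Gata3, Rora, Il7r, Thy1, Il2ra, Il1rl1, Ptprc), Xist and Eif2s3y. Other genes in the text, such as Cdkn1a, Usp11, Stub1, Id1, Itgae, Areg, Icos and Gzma, were named after their values were seen. Same-numbered libraries did not deviate together (r of -0.0199, -0.0286 and 0.0097), so no pairing by number was seen. A weak pairing could go unseen in libraries that differ this widely. Protein sequences were not used here.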

Additional observations from a re-analysis of the deposited data

How the results depend on the processing

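None of the 10 genes was called under any alternative that adjusted p over all genes tested. By the unadjusted p with a fold change over 2, 1 was called (Smad3), with 3 of the wider list, Usp11 among them, and 814 of all genes tested. The number of called genes in all, 5, was 0 with a pseudocount of 0.1 or 0.01, median centring, no filter or the replicate block, and 0 to 2 with 1 library left out. The replicate block changed no other call. Tgfbr2 (-0.28 to -0.06), Smad3 (-3.45 to -0.86), Smad7 (0.75 to 1.73) and Skil (-1.03 to -0.55) kept the direction of their log2 fold change, as did 14 of the 15 tested genes of the wider list named in the text, 4 of them (Cdkn1a, Usp11, Stub1 and Id1) with alternatives added after seeing the data.

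The median log2 fold change of the 8 genes, -0.29, was -0.47 and -0.50 with a pseudocount of 0.1 and 0.01, 0.26 after quantile normalization, -0.15 without a filter (10 genes), -0.16 with a mean of at least 5 FPKM (3 genes) and -0.39 to -0.0501 with 1 library left out, at -0.0902 without Con library 3 and lowest in size without Abx library 2. The median of all genes tested moved from -0.064 to -0.152 and -0.169 with the smaller pseudocounts and to 0.0317 after quantile normalization. Directions turned after quantile normalization for Tgfb1 (0.18) and Ski (0.34). With 1 library left out the ranges were -0.57 to 1.07 for Smad2, -0.33 to 0.76 for Smad4 (-0.20 without Con library 1), -1.55 to 0.18 for Ski and -0.10 to 0.77 for Pard6a (lowest without Abx library 3). The ratio of Skil to Ski (-0.41) was 0.51 and 0.92 with a pseudocount of 0.1 and 0.01 and -1.14 to 0.55 with 1 library left out. The cause of these reversals was not tested. With 3 libraries a group, the intervals of 7 of the 8 genes include a change of 0, and values near 0 FPKM have no known counting error.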
